A study of Mus musculus with 2 samples.

Results

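The Il12b/Ccl22 mature DCs are a small set of spleen cells that carried transcripts of Ccr7 and Fscn1, which mark dendritic cells (DCs) that have matured, together with Il12b or Ccl22. They were chosen cell by cell from unique molecular identifiers (UMIs, 1 count for each captured transcript). A cell belonged when it held at least 2 UMIs of Ccr7, at least 1 of Fscn1, none of Cd3e, fewer than 3 of Cd79a, and either at least 1 of Il12b or at least 3 of Ccl22. The rule took 80 of 6393 cells, 31 of 3308 in replicate 1 and 49 of 3085 in replicate 2. The study sequenced spleen cells of wild-type mice that had been enriched for CD11c+ cells with magnetic beads, tagged per sample and captured on the BD Rhapsody system. There were 2 samples of 1 condition, so comparisons are between cell groups within these samples. The labels and methods give no number of mice per sample, and the p-values therefore measure only the spread between these samples, which may be technical.

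Il12b encodes the p40 chain shared by interleukin 12 and interleukin 23, through which DCs instruct T cells and natural killer cells. Ccl22 is a chemokine that attracts Ccr4-bearing T cells, including regulatory T cells. When a conventional DC matures, it switches on Ccr7, the receptor that draws it into the T-cell zone, and Fscn1, an actin-bundling protein of its dendrites, while NF-kB signalling rises and antigen uptake is shut down. Resident DCs of the spleen fall into cDC1s, which take up dead cells and cross-present to CD8+ T cells, and cDC2s, which mainly prime CD4+ T cells.

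The comparisons used 3 further cell groups. Resident cDC1s, with at least 2 UMIs of Clec9a, at least 1 of Xcr1 and fewer than 2 of Ccr7, numbered 791 and 686 cells in replicates 1 and 2. Resident cDC2s, with at least 2 UMIs of Clec4a4, fewer than 2 of Ccr7, fewer than 3 of Cd79a and none of Clec9a, Xcr1, Siglech or Cd3e, numbered 411 and 341 cells. The other mature DCs met the same Ccr7, Fscn1, Cd3e and Cd79a limits but held no Il12b and fewer than 3 UMIs of Ccl22, and numbered 114 and 129 cells. UMIs were summed per replicate and group, and levels are given as counts per 1000000 UMIs of the group (CPM), replicate 1 first. Because cells were assigned by the very transcripts being counted, the 10 genes of these rules were left out of every test and are only described.

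The Il12b/Ccl22 mature DCs made up 0.937% of cells in replicate 1 (95% exact binomial interval 0.638 to 1.33) and 1.59% in replicate 2 (1.18 to 2.09), a mean of 1.26% ± 0.460 (SD, n = 2). The intervals cover counting error only, and CD11c enrichment sets the denominator. The 2 tables shared 0 cell barcodes. The cells held a median of 10059 and 13346 UMIs, against 9842 and 9812 in other mature DCs and 20474 and 21561 in resident cDC1s. Replicate 1 contributed 386655 UMIs to their sums and replicate 2 718370, so values from replicate 2 rest on more transcripts. Scrublet, which scores resemblance to simulated doublets, called 62 cells in all and 0 of the 80. In 4 cells of replicate 1 and 13 of replicate 2 the Clec9a and Xcr1 limits of the cDC1 rule were met as well.

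The genes that chose the cells were at the following levels. Ccr7 (chr11:99144196-99155077, minus strand, GRCm38) reached 1836 and 2405 CPM, against 834 and 942 in other mature DCs and 0.834 and 1.91 in resident cDC1s. Fscn1 (chr5:142960343-142973185, plus strand) reached 3445 and 2969 CPM, against 1457 and 1276 and 2.92 and 5.60. Both mature groups were chosen by these genes, at the same limits, so their levels are a description only. Il12b (chr11:44400063-44414033, plus strand) stood at 1042 and 1545 CPM, with 12.3 and 18.8 in resident cDC1s and 2.59 and 1.59 in resident cDC2s. Ccl22 (chr8:94745590-94751699, plus strand) stood at 432 and 647 CPM, with 9.31 and 8.73 in other mature DCs and 10.4 and 1.91 in resident cDC1s. By the annotation, no other gene overlaps any of these 4.

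**Figure D1:**
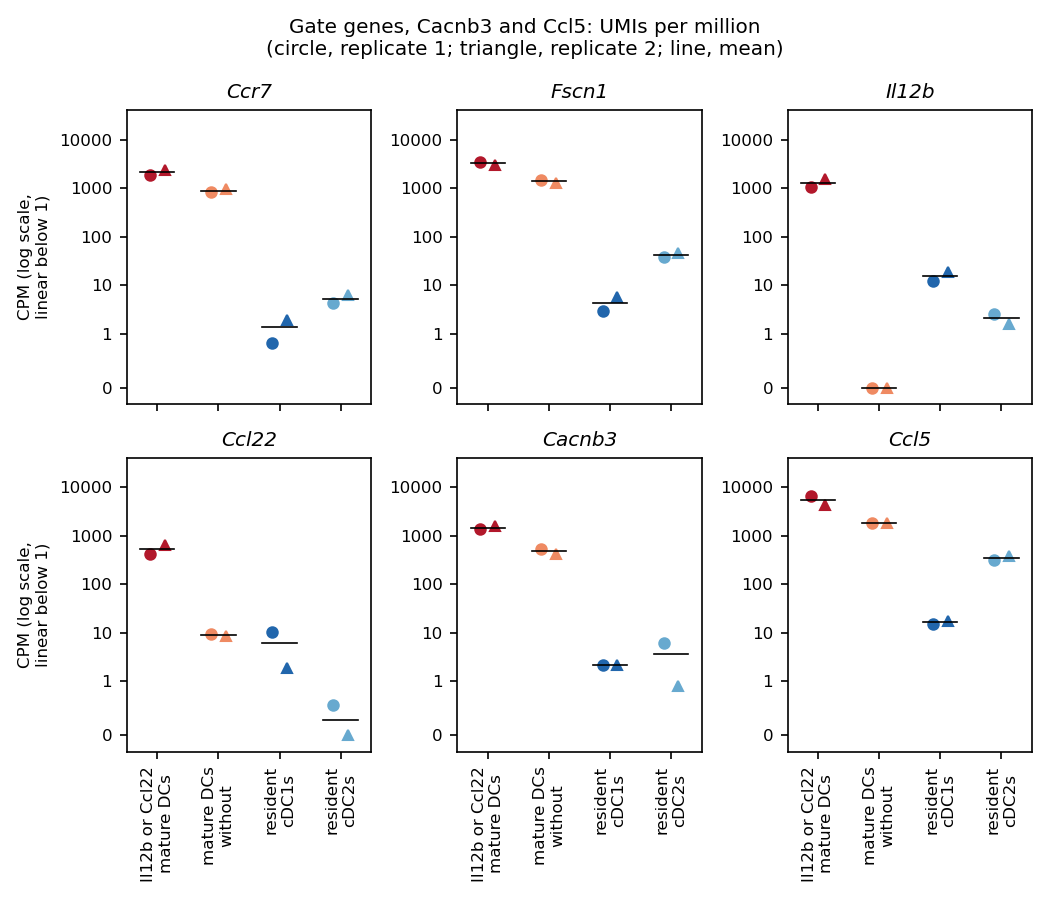
Levels of the genes that chose the cells and of 2 further maturation genes in each cell group, in CPM on a symmetric log axis that is linear below 1. Circles are replicate 1, triangles replicate 2 and the line is their mean. Il12b stood at 1042 and 1545 CPM in the Il12b/Ccl22 mature DCs and Ccl5 at 6636 and 4303 CPM.

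The 250 bases before the annotated start of Il12b are shown because Il12b is the transcript that most of the cells were chosen by. They lie at chr11:44399813-44400062 on the plus strand of GRCm38.p6, with the sequence credited to RefSeq. No capitals appear, since the window holds no match to the kappa-B motif described with the NF-kB genes, and nothing about NF-kB at this gene follows from that.
Il12b: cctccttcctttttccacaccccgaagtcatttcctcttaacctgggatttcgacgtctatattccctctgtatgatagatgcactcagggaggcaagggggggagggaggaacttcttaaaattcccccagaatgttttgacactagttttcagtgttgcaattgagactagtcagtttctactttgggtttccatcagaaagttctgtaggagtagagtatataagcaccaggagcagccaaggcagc

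Il12b and Ccl22 were unevenly spread over the cells. In replicate 1 the Il12b count per cell ran from 0 through a median of 2 to 73 UMIs, with 23 of 31 cells positive, and in replicate 2 from 0 through 4 to 227, with 43 of 49 positive. The highest single cell held 18.1% and 20.5% of the cells' Il12b UMIs. Ccl22 ran from 0 through 2 to 25 UMIs in replicate 1, with 22 cells positive, and from 0 through 2 to 111 in replicate 2, with 29 positive. The top cell again held much of it, 15.0% and 23.9%. For comparison, Cd3e-positive cells were those with at least 2 UMIs of Cd3e and none of Cd79a or Ccr7. Il12b, which T cells should lack, was found in 3.03% and 0% of 33 and 114 such cells. Their median depths were 5680 and 6304.5 UMIs. MHC class II genes summed to 34029 CPM in them in replicate 1 and 5986 in replicate 2, so the 2 sets were unlike. Every cell held Ccr7 and Fscn1 by the rule, at a median of 15 and 30 UMIs for Ccr7 and 27 and 28 for Fscn1.

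The cells fell into 3 kinds by the 2 transcripts. Il12b with fewer than 3 UMIs of Ccl22 was found in 41 cells, 16 and 25 by replicate. Il12b with at least 3 UMIs of Ccl22 was found in 25 cells, 7 and 18. Ccl22 without Il12b was found in 14 cells, 8 and 6. In these 25 cells Il12b was at 2273 and 2405 CPM, above the 1046 and 1035 CPM of the cells with Il12b and little Ccl22. Ccl5, a chemokine gene that the rule does not use, stood at 11769 and 6632 CPM in cells with Il12b and little Ccl22 and at 2958 and 1939 CPM in cells past both limits. In cells with Ccl22 only it was 1025 CPM in replicate 1 and 4363 in replicate 2, so the order of the last 2 kinds was not the same in both replicates.

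**Figure D2:**
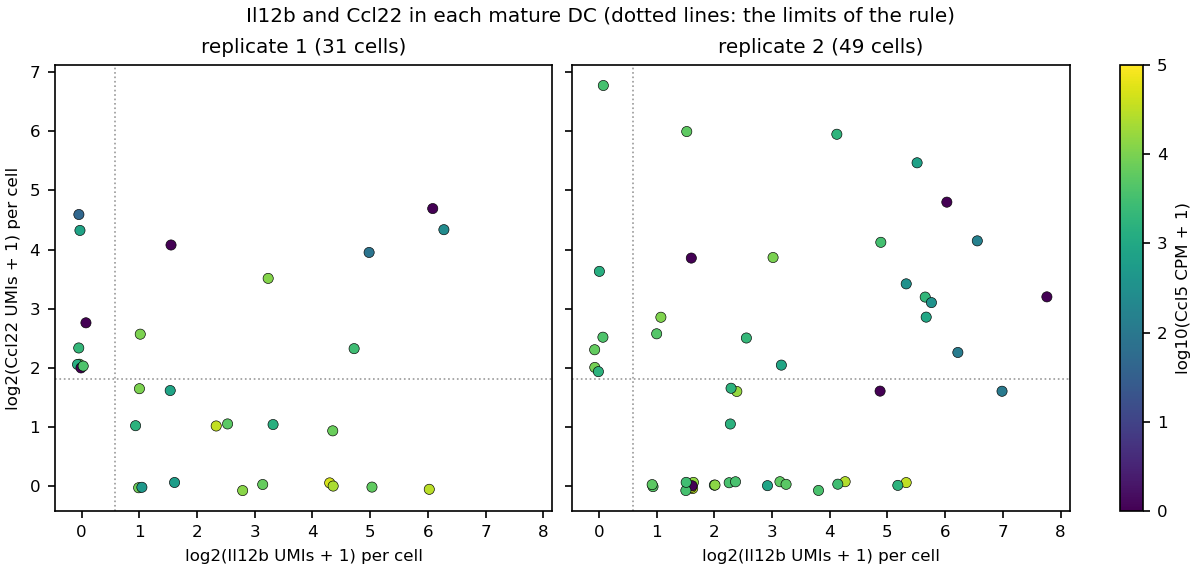
Each point is 1 of the 80 Il12b/Ccl22 mature DCs, placed by log2(UMIs + 1) of Il12b and of Ccl22 with a small jitter and coloured by log10(CPM + 1) of Ccl5, and dotted lines mark the limits of the rule. The 25 cells with at least 3 UMIs of Ccl22 and any Il12b lie past both limits.

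Across all captured cells, the 80 cells held 30.8% of the Il12b UMIs of replicate 1 and 45.1% of those of replicate 2. Resident cDC1s held 15.8% and 12.0% of the Il12b, and cells outside all 4 groups 52.3% and 42.6%. Of Ccl22 the 80 cells held 23.96% in replicate 1 and 73.7% in replicate 2, a difference between replicates larger than for Il12b. Resident cDC1s held 24.96% and 4.75% of the Ccl22, and cells outside all 4 groups 48.9% and 19.7%. Transcripts of the partner chains Il12a and Il23a, of Ccl17, which like Ccl22 binds Ccr4, and of Cd207 were at 0 UMIs in the 80 cells. All captured cells together held only 17 and 21 UMIs of Il12a, 3 and 7 of Il23a and 8 and 9 of Ccl17. For these 3 genes 0 UMIs in so few cells therefore does not show absence. Cd207 had 407 and 492 UMIs in all, of which resident cDC1s held 371 and 480.

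Cells just inside and outside the limits were counted. Of the 80, 1 held the minimum of 2 Ccr7 UMIs, 3 the minimum of 1 Fscn1 UMI, 6 only 1 Il12b UMI with fewer than 3 of Ccl22, and 6 exactly 3 Ccl22 UMIs with no Il12b. Outside, 19 of the other mature DCs held 1 or 2 UMIs of Ccl22. The largest neighbouring set failed on Fscn1 alone: 48 cells (23 and 25) met every other limit with 0 Fscn1 UMIs. These had a median of 18302 and 17470 UMIs, and 14 in each replicate also met the Clec9a and Xcr1 limits. They carried Il12b at 1262 and 2026 CPM, above the level of the 80 cells in each replicate, but Cacnb3 at only 183 and 311 CPM and Ccl5 at 89.5 and 775. Clec9a, a cDC1 receptor for dead cells, stood at 658 and 638 CPM in them and at 127 and 210.2 in the 80 cells. These values are given as a description, since the same transcripts drew the line.

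Against resident cDC1s, of 11223 genes tested 2206 (19.7%) were higher and 2300 (20.5%) lower in the Il12b/Ccl22 mature DCs, by edgeR's quasi-likelihood test at a Benjamini-Hochberg adjusted p under 0.05. The median log2 fold change of all genes was -0.16. The fold changes used trimmed-mean scaling factors, and with plain library sums in their place the split was 1868 higher against 3089 lower and the median -0.36, a shift of -0.20 on the log2 scale. Changes are to be read against those medians, and counts of list genes against the shares over all genes. Those shares were 19.4% higher and 18.2% lower against resident cDC2s, and 10.4% and 8.65% against other mature DCs. Values written with ± in parentheses are log2 fold changes with their standard error (SE), from 2 sums per group.

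The maturation programme, a list of 40 genes known from mature DCs, was higher for 37 of its 39 tested genes and lower for 1 against resident cDC1s, with a median log2 fold change of 3.94. Under the 13 alternative settings the count higher was 36 or 37. The list was chosen with earlier results of these data known, and the cells were chosen by the maturation genes Ccr7 and Fscn1. The count therefore describes the cells and is no independent support for their maturity. Later lists reuse some of its genes, so their counts are not independent of this one. Relb, Traf1 and Birc2 are also in the NF-kB list, and Fas, Birc2 and Bcl2l14 in the survival list. Cacnb3, named next, was among the markers set for these cells beforehand. Cacnb3 (chr15:98630840-98644529, plus strand), a subunit of voltage-gated calcium channels, was at 1363 and 1589.7 CPM against 2.14 and 2.16 in resident cDC1s (log2 fold change 9.61 ± 0.34 SE, adjusted p = 3.77e-09). It was detected in 29 of 31 and 47 of 49 of the cells and in 9.09% and 3.51% of Cd3e-positive cells. Socs2, a feedback inhibitor of cytokine signalling, was at 644 and 589 CPM against 1.55 and 1.34 (8.91 ± 0.17). Adcy6, an adenylyl cyclase, was at 497 and 418 CPM against 1.13 and 0.382, and Il4i1, a secreted amino acid oxidase that restrains T cells, at 652 and 599 against 2.68 and 2.35. For none of these did the 2 replicates of one group overlap those of the other. They were picked from the genes called, so this is a description only. Cd86, a ligand of CD28, was the member called lower (369.8 and 206 CPM against 461 and 446, -0.53 ± 0.17, adjusted p = 0.0322), and the call was lost in 4 of 13 alternatives, among them that without the replicate 2 sum of the cells (-0.25, adjusted p = 0.190, range over alternatives 2.42e-06 to 0.19). Socs3, the other feedback inhibitor, was not called.

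**Figure D3:**
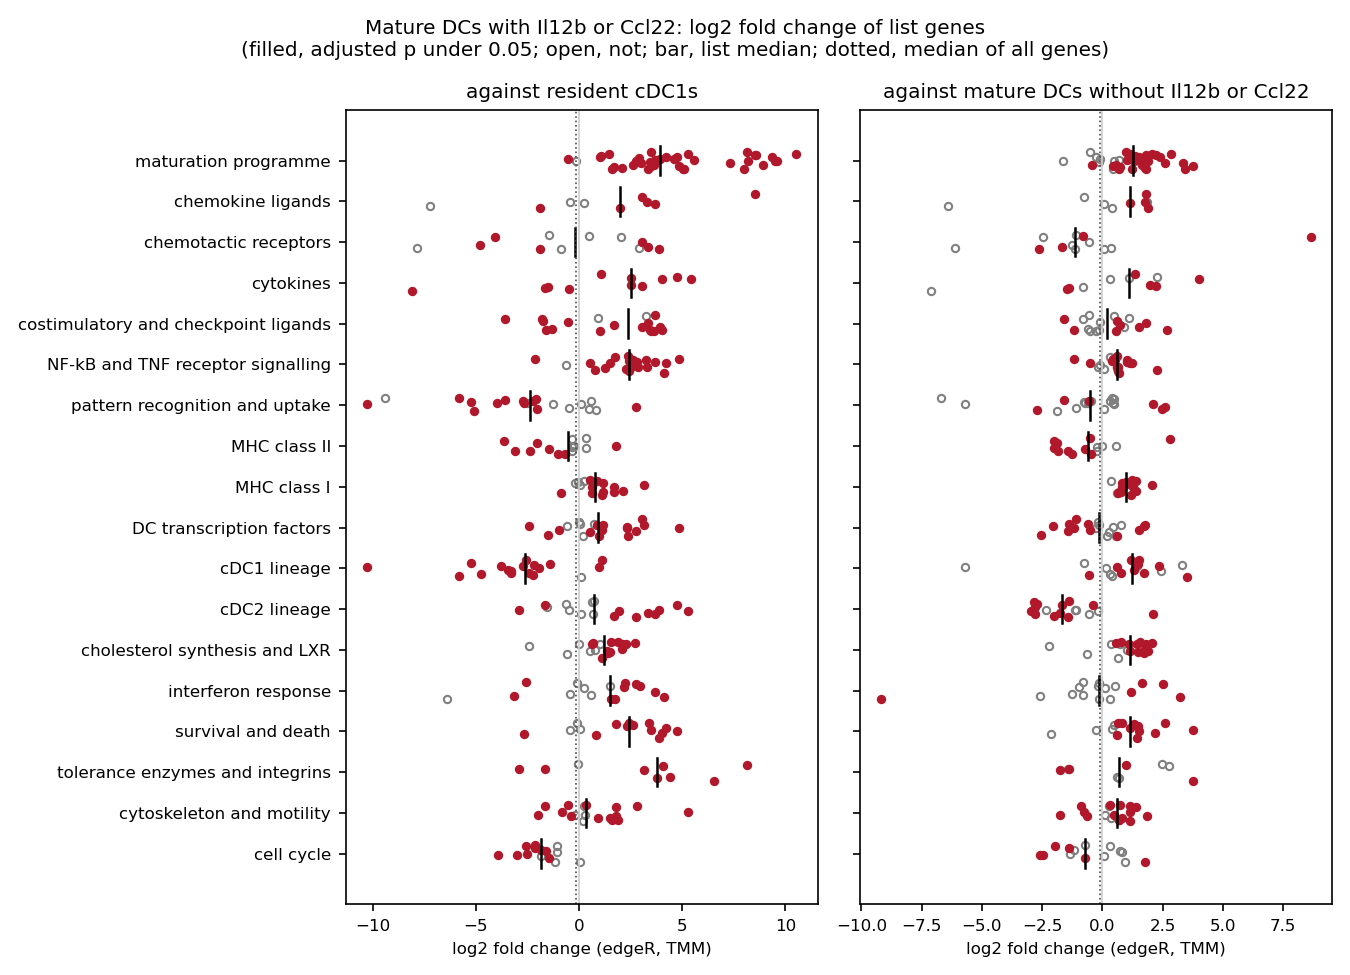
Log2 fold change of each tested gene in each list, for the Il12b/Ccl22 mature DCs against resident cDC1s and against other mature DCs. Filled points passed an adjusted p under 0.05, open points did not, the bar is the list's median and the dotted line the median of all genes, while the extremes of genes at 0 UMIs in 1 group depend on the prior count of the fit. The maturation programme's median is 3.94 against resident cDC1s and 1.26 against other mature DCs.

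Genes of NF-kB and TNF receptor signalling were higher for 19 of 21 tested against resident cDC1s and lower for 1, with a median log2 fold change of 2.43. Relb, which pairs with the Nfkb2 product in the non-canonical pathway, was at 1311 and 1197 CPM against 47.2 and 52.5 (4.84 ± 0.12, adjusted p = 2.93e-10). Nfkb2 itself was at 238 and 156 against 42.4 and 42.7 CPM (2.36 ± 0.18). Nfkbia, the inhibitor that NF-kB induces on itself, was at 944 and 1032 against 184 and 189.8 CPM (2.60 ± 0.12). The adaptor Traf1 and the ubiquitin ligase Birc2 were also higher (3.67 ± 0.11 and 4.19 ± 0.13). Tnfrsf1a, the widely expressed TNF receptor, was the one gene lower, at 10.3 and 11.1 CPM against 54.8 and 56.3. Against other mature DCs, where 10.4% of all genes were higher and 8.65% lower, 14 of the 21 were higher and 2 lower, with a median of 0.61, and 8 were higher with library sums and 9 when cells were thinned to 5000 UMIs. Relb there was 1311 and 1197 against 1128 and 1052 CPM (0.45 ± 0.11, adjusted p = 0.0134, range over alternatives 1.20e-04 to 0.153), and Nfkb1, the canonical p50 gene, was lower (243 and 238 against 429.7 and 402 CPM, -0.53 ± 0.12). Neither call held when cells were thinned.

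Upstream sequence of 2 genes that were higher in these cells is shown, since both hold a kappa-B motif. The motif searched has 10 letters, GGGA then any base then TTTCC, on either strand (in reverse GGAAA, any base, TCCC), and the capitals mark the match. It occurs in the promoter window of 112 of 27025 genes in the RefSeq table (0.414%). By list it was in 2 of 20 windows of NF-kB, 1 of 14 of MHC class I and 0 of 29 of the maturation programme. It was also in 2 of 13 of the cytokines, 1 of 9 of the chemokines and 1 of 12 of the cell cycle. Tlr3 held it in the uptake and cDC1 lists, and Ltb in the cDC2 list. Tlr3 was lower than in cDC1s, while Ltb was lower than in other mature DCs and higher than in cDC1s. The match in Nfkbia begins 29 bases before the annotated start and the one in B2m, the light chain of MHC class I, 126 bases before. A match describes letters in the window and is no evidence of binding. The sequences lie at chr12:55492648-55492897, minus strand, and chr2:122147437-122147685, plus strand, of GRCm38.p6, from RefSeq.
Nfkbia: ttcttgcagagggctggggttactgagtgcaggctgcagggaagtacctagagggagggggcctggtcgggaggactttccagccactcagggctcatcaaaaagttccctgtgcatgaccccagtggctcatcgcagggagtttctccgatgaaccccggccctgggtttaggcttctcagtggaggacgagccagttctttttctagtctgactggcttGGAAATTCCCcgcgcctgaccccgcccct
B2m: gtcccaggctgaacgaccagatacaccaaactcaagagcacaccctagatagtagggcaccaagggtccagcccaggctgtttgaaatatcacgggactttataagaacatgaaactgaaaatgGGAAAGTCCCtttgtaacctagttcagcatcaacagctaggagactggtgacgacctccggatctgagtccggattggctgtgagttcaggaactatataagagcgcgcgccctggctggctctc

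Among cytokine genes, 7 of 11 tested were higher than in resident cDC1s and 4 lower (19.7% and 20.5% of all genes). The counts were 5 and 1 when cells were thinned. Il15, whose product sustains natural killer and CD8+ T cells, was at 292 and 368 CPM against 47.0 and 46.4 in resident cDC1s, 8.88 and 7.96 in cDC2s and 106 and 64.8 in other mature DCs (3.04 ± 0.21 against cDC1s, adjusted p = 5.21e-07). Il15ra, which presents it on the cell surface, moved with it, at 251 and 278 CPM against 8.28 and 10.4 (5.03 ± 0.26). Both were also higher than in other mature DCs, by 2.23 ± 0.22 and 3.44 ± 0.28.

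Both chains of interleukin 27 were also higher. Il27, its p28 chain, was at 46.6 and 19.5 CPM against 2.62 and 1.72 in resident cDC1s and 0.776 and 3.64 in other mature DCs (4.01 ± 0.57 and 4.01 ± 0.73). Ebi3, its partner chain, was at 77.6 and 76.6 CPM against 45.1 and 40.2 and 43.4 and 29.8 (1.06 ± 0.24 and 1.34 ± 0.28). The call of Ebi3 against cDC1s was lost without the replicate 2 sum of the cells (0.91, adjusted p = 0.0934, range over alternatives 4.86e-04 to 0.0934). Tnf stood at 158 and 83.5 CPM against 13.5 and 31.9 (2.52 ± 0.49), with the 2 replicates of the cells far apart. Il6 was called higher at low levels (7.76 and 8.35 CPM against 1.13 and 2.10, 2.53 ± 0.79), and the call was lost in 4 of 13 alternatives. These were thinning (2.42), leaving out either replicate sum (2.55 and 2.30) and leaving out mature DCs that met the cDC1 limits (0.95). Il1b went the other way, at 246 and 223 CPM against 823 and 717 in other mature DCs (-1.47 ± 0.14, adjusted p = 3.64e-05) and 346 and 406 in resident cDC1s (-0.50 ± 0.14). Il1rn, the interleukin 1 receptor antagonist, was called higher than in cDC1s, but all of it came from replicate 2 (0 and 48.7 CPM), and the fold reversed from 5.42 ± 1.01 to -5.39 without that sum.

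Chemokine genes were higher for 5 of 9 tested against resident cDC1s, 8 of 9 against resident cDC2s (5 with library sums, and 19.4% of all genes) and 4 of 9 against other mature DCs. Ccl5 (chr11:83525778-83530518, minus strand), a chemokine that attracts effector T cells, stood at 6636 and 4303 CPM against 1851 and 1849, 15.0 and 17.9 and 319 and 393 in other mature DCs, cDC1s and cDC2s. It was higher than in other mature DCs by 1.79 ± 0.16 on the log2 scale (adjusted p = 2.32e-05), and a single cell held 30.1% of it in replicate 1. Cxcl16, the ligand of Cxcr6 on resident-type T cells, was at 7.40 and 4.09 CPM in cDC2s, 115 and 108 in cDC1s, 302 and 362 in other mature DCs and 887 and 1015 in the Il12b/Ccl22 cells (1.78 ± 0.16 against other mature DCs). Cxcl9, the interferon-induced ligand of Cxcr3, was lower than in cDC1s (59.5 and 231 against 598 and 794 CPM, -1.89 ± 0.36). Its call against other mature DCs (52.0 and 52.4 CPM, 1.90 ± 0.45) was lost when the 20 mature DCs that also met the Clec9a and Xcr1 limits (17 of these cells and 3 of the others) were left out, and the fold was 0.34 without the replicate 2 sum.

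Costimulatory and checkpoint ligands were higher for 10 of 18 tested and lower for 6 against resident cDC1s, and higher for 6 and lower for 2 against other mature DCs (3 and 4 with library sums). Of this list Cd40, Cd80, Cd83, Cd86, Cd200, Cd274, Pdcd1lg2 and Icosl are also in the maturation programme and were counted there. Cd40, the receptor through which T cells license DCs, was at 308 and 381 CPM against 38.0 and 40.9 and 111 and 126 (3.35 ± 0.18 and 1.82 ± 0.18). Pvr, a ligand of the lymphocyte receptors DNAM-1 and TIGIT, was at 328 and 253 CPM against 19.1 and 20.7 and 58.9 and 48.0 (4.04 ± 0.16 and 2.67 ± 0.17, the latter with an adjusted p of 4.81e-06). Cd274, the PD-L1 gene, was higher than in cDC1s (277 and 366 against 36.2 and 34.2 CPM, 3.42 ± 0.18) but not called against other mature DCs (484 and 386 CPM, -0.15 ± 0.17, adjusted p = 0.608). Cd80, the other ligand of CD28, likewise passed only the first test (191 and 169.8 against 92.8 and 114 and 244 and 269 CPM). Havcr2, which encodes TIM-3, was lower than in both (36.2 and 54.3 against 646 and 657 and 166 and 183 CPM). Icosl, the ligand of ICOS on T cells, was at 1360.4 and 1058 CPM against 111 and 111 (3.62 ± 0.11).

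Uptake and pattern-recognition genes were lower for 11 of 20 tested against resident cDC1s and higher for 1, with a median of -2.37. Tlr3, the sensor of double-stranded RNA, was at 0 and 6.96 CPM against 296 and 287 (-5.80 ± 0.42). Naaa, a lipid hydrolase of cDC1s, was at 18.1 and 34.8 against 1195 and 1297 CPM, and Wdfy4, needed for cross-presentation of cell-bound antigen, at 316 and 249 against 1523 and 1481 (-2.24 ± 0.11). The exception was Ly75, the endocytic receptor DEC-205, at 559 and 798 CPM against 116 and 117 in cDC1s, 137 and 138 in other mature DCs and 9.43 and 8.18 in cDC2s (2.77 ± 0.18, 2.59 ± 0.19 and 6.64 ± 0.23). The lower counts were particular to the cDC1 comparison, and Tlr3, Naaa and Wdfy4 are also in the cDC1 list. Against cDC2s 5 genes were higher and 6 lower, and against other mature DCs 3 were higher, 3 lower and 14 not called. The list summed to 1389 and 1734.5 CPM in the cells, 6482 and 6259 in cDC1s, 1756 and 1614 in cDC2s and 1318.5 and 1173 in other mature DCs.

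For MHC class II, 7 of 14 genes were lower than in resident cDC1s and 1 higher, and 9 were lower and 1 higher than in other mature DCs (8 to 12 lower over the alternatives). Ciita, the class II transactivator, was at 181 and 146 CPM against 753 and 758, 813 and 791 and 734 and 675 in cDC1s, cDC2s and other mature DCs (-2.04 ± 0.12 and -1.88 ± 0.12 against the first and last). H2-DMb1, part of the peptide exchange factor, was at 28.4 and 32.0 CPM against 301 and 303 (-3.09 ± 0.17), and March1, the ligase that clears class II from the surface, at 49.1 and 25.1 against 529 and 457 (-3.65 ± 0.23). The abundant chain gene H2-Aa, at 6624 and 8493 CPM against 10508 and 11275, was not called (-0.32 ± 0.14, adjusted p = 0.0891), but was called lower in 7 of 13 alternatives (adjusted p 1.41e-11 to 0.127), the fit with the replicate as a block among them (adjusted p = 0.0205). With library sums 11 of the 14 were lower than in cDC1s.

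For MHC class I, 11 of 16 genes were higher than in resident cDC1s and 1 lower, and 14 of 16 were higher than in other mature DCs (12 to 14 over the alternatives), with a median of 0.96. Nlrc5, the class I transactivator, was at 874 and 1076 CPM against 129.6 and 127, 72.7 and 75.0 and 251 and 309 (3.14 ± 0.16 and 2.07 ± 0.16 against cDC1s and other mature DCs, the latter with an adjusted p of 1.11e-05). B2m, whose upstream sequence is printed with that of Nfkbia, was at 7288 and 8138 CPM against 2692 and 2827 and 5692 and 5864 (1.68 ± 0.11 and 0.67 ± 0.11). Psme2, a proteasome activator subunit, was also higher than in both (308 and 347 against 85.7 and 86.9 and 156 and 146 CPM). Pdia3, a chaperone of peptide loading, was the gene lower than in cDC1s (230.2 and 339.7 against 604 and 642 CPM). Class I heavy chain genes are near-identical copies, so how reads were split between H2-K1 and H2-D1 is uncertain.

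Survival and death genes were higher for 11 of 15 tested against resident cDC1s and 11 of 15 against other mature DCs (9 to 11 over the alternatives). Both directions of function were among them. Bcl2l11, the death-promoting BIM gene, was at 481 and 348 CPM against 41.2 and 46.4 and 66.7 and 91.0 (3.41 ± 0.17 and 2.61 ± 0.18). Bcl2l1, the protective BCL-XL gene, was at 173 and 113 CPM against 8.69 and 11.1 and 41.1 and 31.3 (2.19 ± 0.26 against the latter). Fas, a death receptor, and Cflar, which blocks the caspase it recruits, were both higher than in cDC1s (4.75 ± 0.24 and 3.87 ± 0.12).

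Genes of cholesterol synthesis and of LXR, the oxysterol-sensing receptor, were higher for 12 of 18 and lower for 0 against each of the 3 groups, with 8 higher against other mature DCs under library sums. Abcg1, which exports cholesterol and is an LXR target, was at 538 and 494 CPM against 94.7 and 86.8 and 166 and 125 (2.70 ± 0.14 and 2.08 ± 0.15). Hmgcs1, an early enzyme of cholesterol synthesis, was at 127 and 109 CPM against 39.6 and 32.8 in cDC1s (1.88 ± 0.19). Genes of synthesis and export were both among those called higher.

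The interferon list was mixed. It had 8 of 16 genes higher and 2 lower against cDC1s, 5 higher and 7 lower against cDC2s, and 4 higher and 1 lower against other mature DCs. Over all genes the shares higher and lower, in the same order, were 19.7% and 20.5%, 19.4% and 18.2%, and 10.4% and 8.65%. Irf1, an interferon-responsive transcription factor, was at 753 and 891 CPM against 122 and 156 and 192 and 157 (2.77 ± 0.18 and 2.50 ± 0.19). The tolerance list, to be read against the same shares, had 6 of 9 higher and 2 lower against cDC1s (4 to 6 higher over the alternatives, 4 when thinned). It had 2 higher and 2 lower against other mature DCs. Among the genes higher than in cDC1s, the fold of Itgb8 went from 4.43 to as low as -3.44 when a replicate was left out. Arg2, an arginase, was at 51.7 and 20.9 CPM against 3.88 and 2.18 in other mature DCs (3.74 ± 0.78, not called without the replicate 1 sum, at 3.08) and 0 UMIs in resident cDC2s, at least 30.6-fold higher than the latter when 3 UMIs per sample are taken as the floor. Ptgs2, the inducible cyclooxygenase of prostaglandin synthesis, was lower than in other mature DCs (62.1 and 167 against 499 and 512 CPM, -1.74 ± 0.33).

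Cytoskeletal genes were higher for 9 of 18 tested and lower for 5 against cDC1s, and higher for 11 and lower for 4 against other mature DCs. Marcksl1, an actin regulator, was higher (5.30 ± 0.13), while Coro1a, a leukocyte actin-binding protein, was lower (339 and 331 against 1207 and 1219 CPM, -1.66 ± 0.12). Of 14 cell cycle genes 9 were lower and 0 higher than in cDC1s, among them the proliferation marker Mki67 (46.6 and 57.1 against 255 and 277 CPM). The list summed to 140 and 539 CPM in the cells, with the replicates far apart, against 1322 and 1412 in cDC1s and 616 and 625 in other mature DCs. Against other mature DCs 5 were lower, 1 higher and 8 not called (1 to 10 lower over the alternatives). Of 12 chemotactic receptors other than the gate genes, 3 were higher and 3 lower against cDC1s, 1 and 2 against cDC2s, and 1 and 3 against other mature DCs. Over all genes the shares higher and lower, in the same order, were 19.7% and 20.5%, 19.4% and 18.2%, and 10.4% and 8.65%. The receptor counts against the resident groups were near or below those shares. Gpr183, the oxysterol receptor that positions DCs at the follicle edge, lay between the groups, at 168 and 131 CPM, above 14.8 and 18.1 in cDC1s and below 516 and 585 in other mature DCs (3.35 ± 0.18 and -1.66 ± 0.16).

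By size of change against resident cDC1s, among genes of at least 50 CPM, the leading gene was Insm1, a zinc-finger transcription factor, at 341 and 334 CPM against 0.179 and 0.0636 (11.39 ± 0.27, adjusted p = 2.93e-10). Asprv1, an aspartic protease gene, followed among genes with more than 3 UMIs in cDC1s, at 111 and 278 against 0.238 and 0.127 CPM. Genes with 1 to 3 UMIs in all cDC1s give only ratios: Nudt17 1707-fold higher (95% counting interval 462 to 14260) and Oprd1, an opioid receptor, 2737-fold (479 to 109300). In the other direction Ppef2 was at 0 UMIs in the Il12b/Ccl22 mature DCs and at least 9.35-fold lower. Hepacam2, an immunoglobulin-family gene, was at 0 and 6.96 CPM against 199 and 233 (-5.37 ± 0.46).

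Against resident cDC2s, 2176 of 11223 genes (19.4%) were higher and 2047 (18.2%) lower, with a median of -0.11. With library sums the split was 1604 against 3494 and the median shifted by -0.35. The maturation programme was higher for 35 of 39 and lower for 0 and the NF-kB list higher for 18 of 21 and lower for 2. MHC class I was higher for 14 of 16, and MHC class II lower for 8 of 14 and higher for 2. Mir155hg, the host gene of the inflammatory microRNA miR-155, was at 171 and 59.9 CPM and at 0 UMIs in cDC2s, at least 87.8-fold higher. Cd63, a tetraspanin, was at 347 and 475 CPM against 1.11 and 0.682 (9.15 ± 0.48). Cd7, an immunoglobulin-family surface protein, was lower than in cDC2s, at 28.4 and 13.9 against 701 and 732 CPM (-4.86 ± 0.24), and lower than in other mature DCs (314 and 370.4 CPM, -3.89 ± 0.26).

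Against other mature DCs, 1166 of 11223 genes (10.4%) were higher and 971 (8.65%) lower, with a median of -0.10. Library sums gave 789 against 1759 and a shift of -0.26, and thinning to 5000 UMIs per cell gave 694 against 541. The maturation programme was higher for 30 of 39 genes and lower for 1, with a median of 1.26 (27 to 31 higher over the alternatives). The 1 lower was Tbc1d4, a regulator of vesicle traffic (1559.5 and 1462 against 2294 and 2614 CPM), which was not called without the 20 mature DCs of both groups that also met the cDC1 limits. Zdhhc14, a palmitoyltransferase, was among the largest changes, at 383 and 413 CPM against 23.3 and 21.1 (4.43 ± 0.20, adjusted p = 7.95e-07). Gclc, the catalytic subunit of the first enzyme of glutathione synthesis, was at 2309.6 and 1215 CPM against 169.9 and 67.7 (4.11 ± 0.34). Serpinb9, which inhibits granzyme B, was at 755 and 989.7 against 102 and 107 CPM (3.33 ± 0.19), though it belongs to a family of close copies. Mab21l3 led by size (437 and 412 against 29.5 and 1.46 CPM, 5.06 ± 0.48), with its 2 values in other mature DCs far apart.

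The lineage lists differed in part between the 2 mature groups. The cDC1 list was higher for 9 of 18 tested and lower for 1, Wdfy4, against other mature DCs, with 8 not called. The cDC2 list was lower for 11 of 17 and higher for 1, Clec12a, with 5 not called. The medians were 1.23 and -1.68. The cDC1 count was 6 without the 20 mature DCs of both groups that also met the cDC1 limits, 6 with library sums and 4 when thinned, and the cDC2 count lower ranged from 8 to 15. Cd8a, carried by spleen cDC1s, was at 553 and 689 CPM against 57.4 and 75.7 (3.49 ± 0.19, adjusted p = 2.15e-06). Irf8, the transcription factor that cDC1s depend on, was at 289.7 and 315 against 157 and 65.5 CPM (1.72 ± 0.29). Cst3, the protease inhibitor cystatin C, is in the MHC class II list and not in the cDC1 list. It was at 10617 and 12232 against 2456 and 1509 CPM (2.78 ± 0.20). On the cDC2 side, Sirpa, the phagocytosis checkpoint receptor, was at 36.2 and 41.8 against 330.4 and 345 CPM (-2.82 ± 0.29). Irf4, the counterpart of Irf8 in cDC2s, was at 36.2 and 22.3 against 89.2 and 90.2 (-1.45 ± 0.25), and Dtx1, a Notch target, at 31.0 and 18.1 against 229 and 195 (-2.95 ± 0.35). The replicates of the 2 groups did not overlap for any of these 6 genes. They were picked from the genes called, so this is a description only.

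Against the resident cells themselves the picture was partial. Of the cDC1 list, 15 of 18 tested genes were lower than in resident cDC1s and 2 higher, and 11 were higher and 1 lower than in resident cDC2s (6 higher when thinned). Irf8 lay between, at 1826 and 1945 CPM in cDC1s and 18.1 and 16.4 in cDC2s. The fold of Irf4 against other mature DCs was not called when cells were thinned (-0.94). Cadm1, a cDC1 adhesion molecule, was at 186 and 131 CPM, below the 1008 and 1069.9 of cDC1s (-2.56 ± 0.24). Cd8a was not called against cDC1s (659 and 704 CPM, 0.08 ± 0.15, adjusted p = 0.686), and its direction reversed in 6 settings, to -0.90 without the mature DCs that met the cDC1 limits. Batf3, a factor of cDC1 development, was higher (184 and 195 against 112 and 109.8 CPM). Of the cDC2 list, 12 of 17 were lower than in cDC2s and 3 higher, Clec12a, Tmem176a and Tmem176b. Of the DC transcription factors, 12 of 20 were higher and 3 lower than in cDC1s (19.7% and 20.5% of all genes). Against other mature DCs 4 were higher and 8 lower (10.4% and 8.65% of all genes). The genes of the resident rules, given without a test, were Xcr1 at 69.8 and 142 CPM and Clec4a4 at 5.17 and 2.78 CPM, against 79.1 and 9.46 and 58.9 and 67.7 in other mature DCs. Xcr1 overlapped between the mature groups and Clec4a4 did not.

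**Figure D4:**
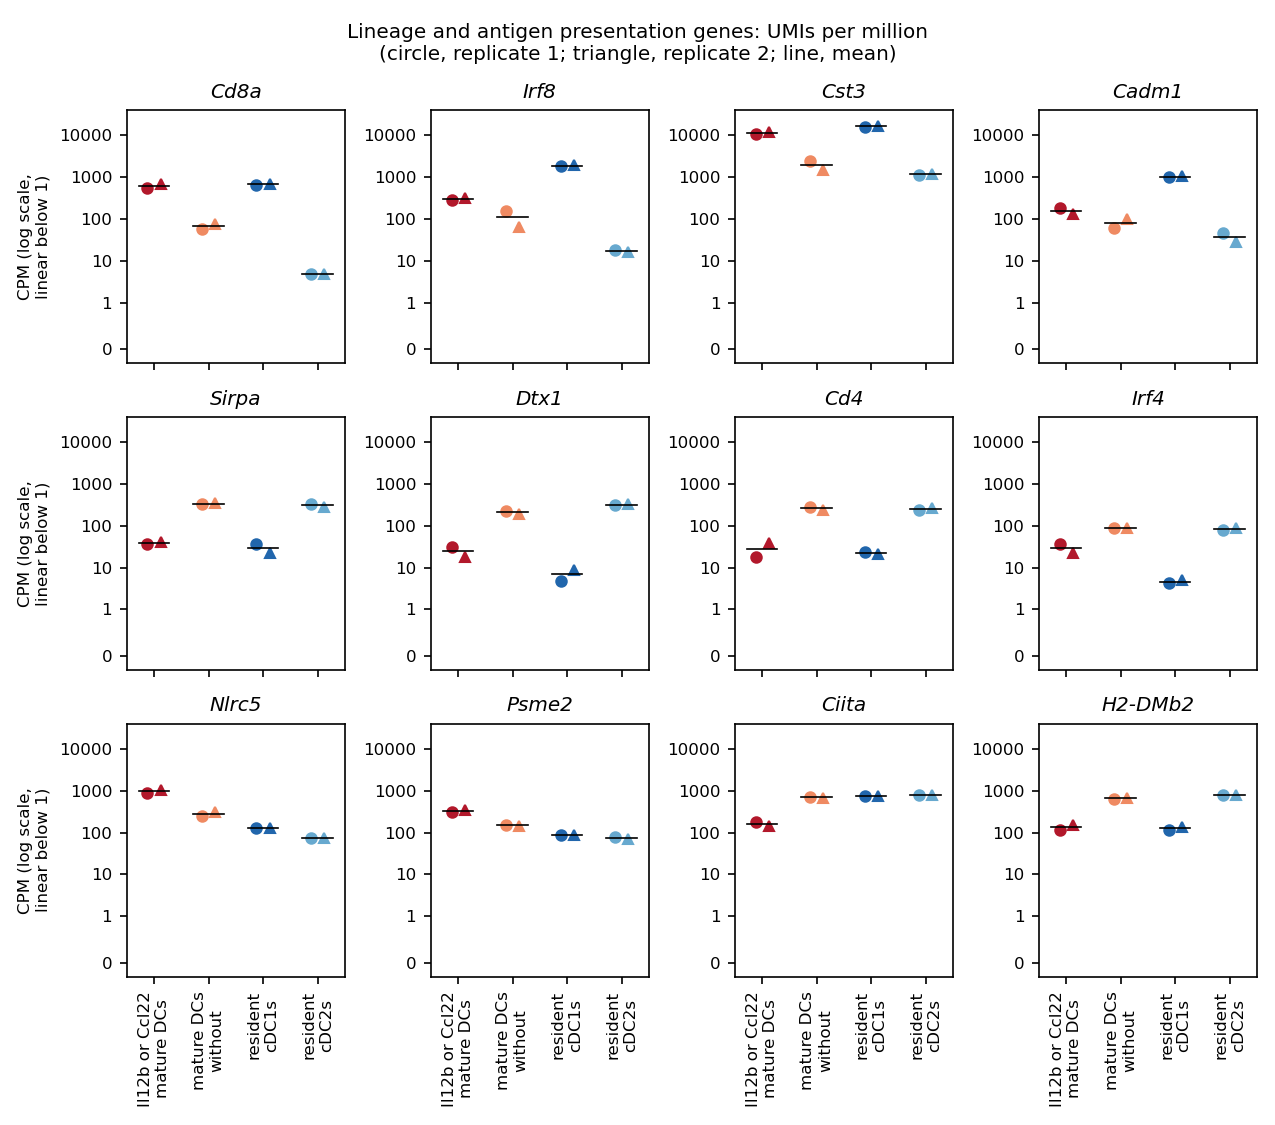
Levels of lineage and antigen presentation genes in each cell group, in CPM on a symmetric log axis that is linear below 1. Circles are replicate 1, triangles replicate 2 and the line is their mean. Cd8a was at 553 and 689 CPM in the Il12b/Ccl22 mature DCs and 57.4 and 75.7 CPM in other mature DCs, and Ciita at 181 and 146 and 734 and 675 CPM.

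The cells with Il12b (23 and 43) were set against those chosen by Ccl22 alone (8 and 6). By edgeR, 0 of 10133 genes (0.0%) passed in either direction, with a minimum adjusted p of 0.0606. At an unadjusted p under 0.05 there were 1364 genes, 917 higher and 447 lower. DESeq2 called 99 higher (1.21%) and 161 lower (1.97%). Over the alternatives the counts ranged from 0 to 319 higher and 0 to 161 lower. The smaller set held 109282 and 71962 UMIs, and its 2 replicates were unlike each other: Cd8a was at 448 and 0 CPM and Cst3 at 11036 and 1668, while the cells with Il12b had 595 and 766 and 10452 and 13408. Gpr183 was lower in both replicates of the cells with Il12b (115 and 80.4 against 302 and 584 CPM, -1.93 ± 0.33, adjusted p = 0.0606) and so was Irf4 (3.61 and 18.6 against 119 and 55.6, adjusted p = 0.122), neither past the threshold. With the replicate as a block 3 genes were higher and 2 lower, and the adjusted p of Gpr183 was 0.0260, in a range over alternatives of 1.81e-06 to 0.15. Ebi3 was likewise not called (46.9 and 51.1 against 156 and 306 CPM, adjusted p = 0.115).

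Transcripts of other cell types were counted in the 80 cells. The 8 T-cell markers summed to 95.7 and 118 CPM, with 124 and 121 in other mature DCs and 10.2 and 10.1 in cDC1s, and 4 of the 8 were at 0 in each replicate. Il7r, a cytokine receptor also found in mature DCs, made up 85.3 and 113 CPM of that sum. The 8 B-cell markers summed to 251 and 255 CPM, of which Ighm was 207 and 198, against 245 and 234 in cDC1s. Macrophage markers summed to 279 and 217 CPM against 1138 and 402 in cDC1s, with C1qa, a complement gene, at 0. Natural killer cell markers summed to 0 and 4.18 CPM, neutrophil and monocyte markers to 20.7 and 5.57, and plasmacytoid DC markers to 25.9 and 25.1. Their part in the results was not tested.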

How the data were processed

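Both samples were spleen cells of wild-type mice enriched for CD11c, whose transcripts were counted per cell. The authors made the deposited UMI counts with the BD Rhapsody WTA Analysis Pipeline 1.12.1 on GRCm38 with GENCODE vM19, with intronic reads counted and UMIs corrected for sequence errors. The submitters' processing notes also name R 4.2.3 and Seurat 4.3.0.1, and the strand setting of the counting is not stated in them. The tables held 27032 genes, with 46953398 UMIs in replicate 1 and 43137746 in replicate 2.

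Counts were summed per replicate and cell group in Python 3.11.15 (pandas 2.3.3) and fitted with edgeR 4.0.16 in R 4.3.3 (quasi-likelihood test, TMM factors, low-count filter, Benjamini-Hochberg adjusted p under 0.05), with the 4 groups sharing 1 estimate of the spread and 5 groups where the cells were split by Il12b. The cells and the 24 gene lists were chosen with earlier results of these data known. Named genes were the 10 with the largest fold in each direction among those called the same way in both replicates at 50 CPM or more, the genes of the rule and genes of the lists. Folds against a group at 0 UMIs are bounds from a floor of 3 UMIs per sample. The same samples supply every group, so replicate numbers pair them, and deviations from the group means correlated at 0.0122, 0.0212 and 0.0569 between the cells and other mature DCs, cDC1s and cDC2s. Doublets were scored with Scrublet in scanpy 1.11.5 and left in, and an alternative left them out. Alternatives were DESeq2 1.42.0, other size factors, no filter, the replicate as a block, cell filters at 3 median absolute deviations, a stricter rule, other limits for resident cells, thinning to 5000 UMIs and leaving out a replicate. Leaving out the mature DCs of both groups that met the cDC1 limits, library sums, and leaving out a single sum of the cells were added after seeing the data. On simulated data with 200 genes changed 4-fold, the fit recovered 149, 146 and 145 against cDC1s, cDC2s and other mature DCs, and 63 between the cells with and without Il12b. Of 200 changed 2-fold it recovered 56, 62, 51 and 2. False calls were 7, 6, 10 and 0 at 4-fold and 2, 3, 2 and 0 at 2-fold. Except between the cells with and without Il12b, the share of genes changed was far below the share called in the data. Recovery in the data may therefore differ. Cxcl11, Ifnb1, Ifnl3 and Clec7a of the lists had no row in the tables, and Cd39 was listed under its symbol Entpd1. Gene positions are from GENCODE M21 on GRCm38. Some genes that the rule would name are not reported here.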

Additional observations from a re-analysis of the deposited data

How the results depend on the processing

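Of 2501 gene-level values under alternatives, 2221 counted as the same. They kept their direction and call or, with 1 replicate left out and no test, stayed within 1 SE of the reported fold. Of the rest, 41 lost the call (18 genes), 41 gained one (9 genes) and 10 reversed (3 genes). The other 188 had no test, each with 1 replicate left out, and moved by more than 1 SE. Counts beyond 1.5 times the reported ones were as follows. Against cDC2s, thinning gave 1424 higher and library sums 3494 lower. Against other mature DCs, thinning gave 694 higher and 541 lower, and library sums 1759 lower. For cells with against without Il12b, genes higher and lower were 99 and 161 with DESeq2, 147 and 79 with no filter, 3 and 2 with the replicate block, 79 and 3 with the cell filters, 149 and 13 under the stricter rule, 31 and 3 thinned, and 20 and 1 without mature DCs that met the cDC1 limits, while DESeq2-type size factors gave 1 lower and library sums 7 lower. Leaving out a replicate sum gave 119 to 319 higher and 30 to 73 lower. Of the reversed folds against cDC1s, Cd8a was -0.096 with no filter, -0.10 with the cell filters, -0.46 thinned, -0.90 without mature DCs that met the cDC1 limits, -0.11 with library sums and -0.26 to 0.23 when a replicate was left out. Il1rn ran from -5.39 to 6.15 and Itgb8 from -3.44 to 5.72 when a replicate was left out. The causes were not tested. With the replicate block 2174 and 2248 genes were higher and lower against cDC1s, 2157 and 1991 against cDC2s, and 1145 and 885 against other mature DCs. Besides H2-Aa against cDC1s and Gpr183 between the cells with and without Il12b, the block changed the call of none of the 167 named tests. With 1 replicate left out of all groups only fold changes could be given.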
